A study of Mus musculus with 6 samples.

Results

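Chemokines are small secreted proteins that attract and position cells, and they act through receptors of the G protein-coupled class on leukocytes, endothelial cells and mesenchymal cells. Ligands are named for the spacing of their conserved cysteines (CC, CXC, CX3C and XC), and atypical receptors bind ligands without the usual G protein signal and clear them. In developing bone, Cxcl12 from stromal cells is known for holding blood-forming cells through Cxcr4, and chemokines that act on Ccr1 and Ccr2 are known for their action on osteoclast precursors. Osteoclasts are bone-resorbing cells of the blood lineage, and Ctsk, which encodes the collagenase cathepsin K, is a defining gene of them.

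The genes described here are 41 chemokine and chemokine receptor genes, chosen by name and matched by symbol to 41 of the 55487 gene IDs in the count table. They were 29 ligands (18 of the CC class, 9 CXC, 1 CX3C and 1 XC), 10 signalling receptors and 2 atypical receptors. RNA-Seq had been run on the rib cages of 6 mouse embryos taken at 16.5 dpc. The controls, labelled wild type, were embryos E420, E434 and E435, and the mutants, labelled Col2-cre;Foxc1-/-;Foxc2-/-, were embryos E423, E433 and E440. In the mutants, floxed alleles of the transcription factor genes Foxc1 and Foxc2 were deleted by a Cre recombinase driven by the Col2 promoter, which is active in cartilage progenitors and their descendants, whereas osteoclasts and other leukocytes come from the blood lineage. The study describes control embryos, for its stained skeletons, as lacking the Col2-cre transgene. The mothers in its crosses were homozygous for both floxed alleles, so littermate controls would carry floxed alleles. Presence of Cre would then also differ between the groups. Both groups had a mixed C57B6 and Black Swiss background, comparisons were between littermates, and which embryos shared a litter is not given in the sources used here. The ribs were described as dissected free of connective tissue. RNA of the whole piece was sequenced, so fewer cells of a type and less RNA per cell cannot be told apart.

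The libraries held between 37853988 and 47794799 counts, so that 1 count was worth between 0.0206 and 0.0255 CPM (counts scaled to a common library total), the unit of the levels below. Foxc1 was at 23.1, 36.9 and 24.2 CPM in the control embryos E420, E434 and E435 and at 3.56, 9.61 and 3.51 CPM in the mutant embryos E423, E433 and E440, and Foxc2 was at 1.99, 4.83 and 3.22 CPM in these controls and at 0.649, 1.14 and 0.737 CPM in these mutants. Control E434 and mutant E433 stood apart from the rest of their groups. Taken over genes, log2 ratios between libraries had an SD of 0.153 between E420 and E435 and 0.132 between E423 and E440, against 0.471 to 1.37 for the 13 other pairs of libraries. A list of 8 keratinocyte genes summed to 17.4 CPM in E434 and to 3068 CPM in E433, against 5058 to 27239 CPM in the other libraries. The list of 7 hepatocyte genes summed to 623 CPM in E433 and to at most 49.3 CPM elsewhere, and that of 8 chondrocyte genes to 20640 CPM in E434 and 7186 CPM in E433 against 419 to 1243 CPM in the rest. A list of 6 skeletal muscle genes summed to between 9734 CPM (E420) and 23641 CPM (E423), so the pieces were not free of muscle. Values without E434 and E433 are given beside each member whose call they change. That fit holds only the close pairs, E420 with E435 and E423 with E440. Its p-values rest on the small spread within these pairs and do not measure the spread between all embryos.

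Of the 41 genes, 36 had at least 10 counts over the 6 libraries and were tested, 24 ligands and all 12 receptors. Ccl8, Ccl19, Ccl22, Cxcl5 and Xcl1 were not tested, with at most 2 counts in each library and 0 in all 6 for Ccl19. At this depth 3 counts amount to between 0.0618 and 0.0764 CPM, so levels below these could not be told from 0. Calls were made by edgeR's quasi-likelihood test, with 0.1 as the limit on the adjusted p-value and 1 as that on the size of the log2 fold change. By these limits 1 of the 36 genes was lower in mutants, Ccl9, and 0 were higher. Among all 26596 genes tested, 0.0301% passed the limits as lower and 0.0338% as higher. Unadjusted p-values under 0.05 were found for 6 lower and 6 higher members, against 4.70% and 5.90% of all genes in these directions. DESeq2's Wald test called Ccl9 and Ccl27a lower and Cxcl9 and Ccr9 higher, where 0.459% of all genes were called lower and 1.33% higher. It gave no adjusted p for 5 of the 36, which it could therefore not call. In 9 members every mutant library lay below every control library, and in 7 every mutant lay above, which is 25.0% and 19.4% of the 36, against 8.21% and 6.81% of all genes tested. The median log2 fold change was -0.03 over the 36 members and 0.01 over all genes tested.

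**Figure D1:**
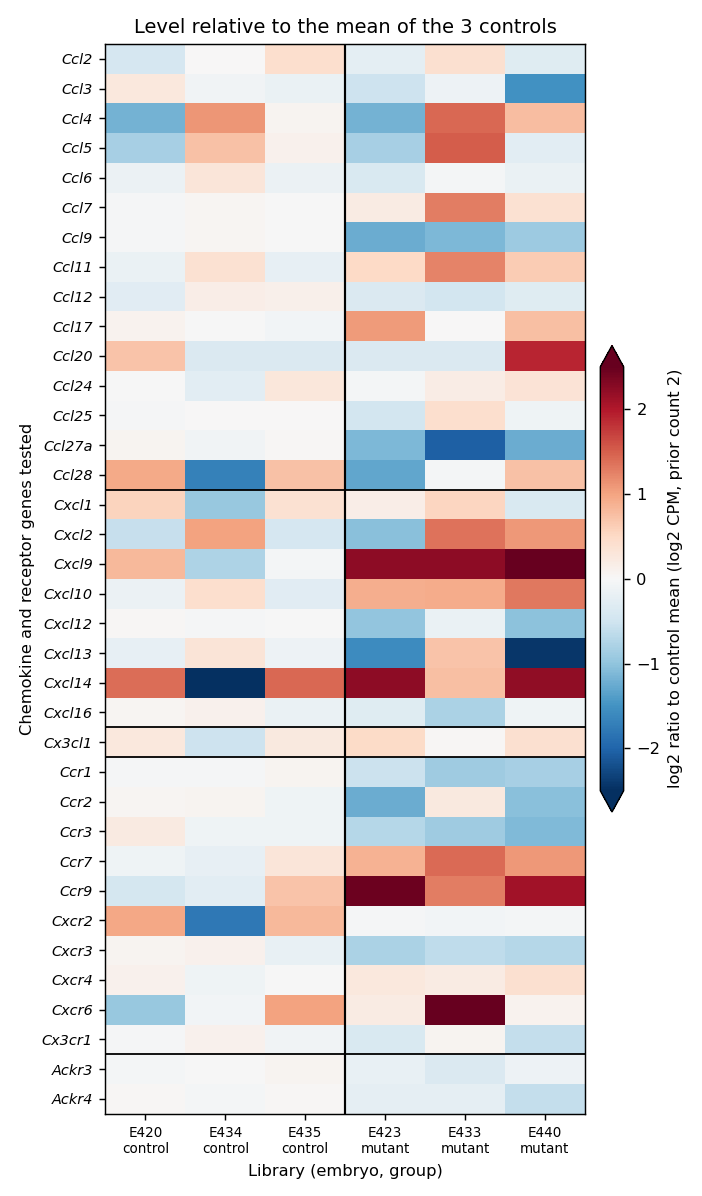
Level of each of the 36 tested members (rows, with CC, CXC and CX3C ligands, receptors and atypical receptors set apart by lines) in each library (columns), as the log2 ratio to the mean of the 3 controls in log2 CPM with a prior count of 2, with colours held at 2.5 and beyond. Ccl9, Ccl27a, Ccr1 and Ccr3 are blue in all 3 mutants and Cxcl9 and Ccr9 red in all 3, while Cxcl13 and Ccr2 are blue in E423 and E440 only and Cxcl14 is deep blue in control E434.

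**Figure D2:**
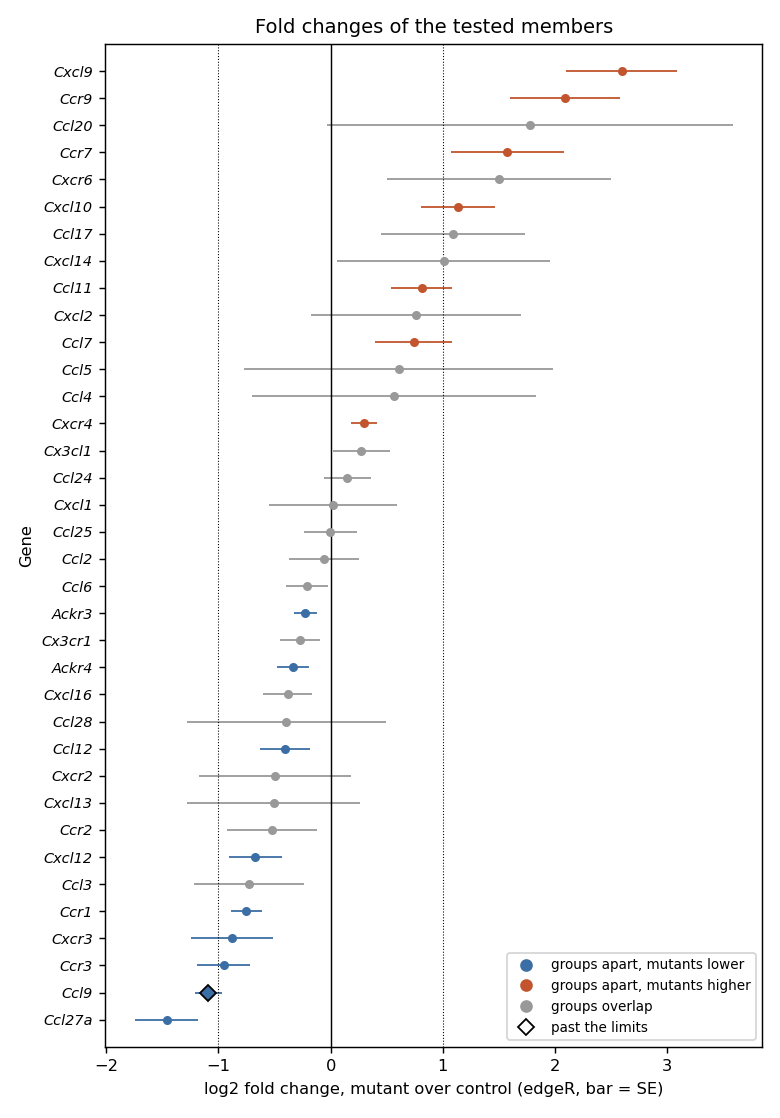
Log2 fold change of each tested member, mutant over control, with its standard error from edgeR. Colour marks whether the 3 mutant and 3 control libraries overlap, the dotted lines mark the fold limits of 1, and the diamond marks Ccl9, the member past both limits at -1.09.

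Expression differed widely between members. Per kilobase of exon, the highest control means were those of Cxcl14 (20.99 CPM per kb) and Cxcl12 (19.9 CPM per kb), followed by Cx3cr1, Ccl9, Cxcr4 and Ackr3 at 6.96, 6.38, 6.28 and 6.14 CPM per kb, of which the last 3 overlapped between embryos, and by Ccr1 at 4.09 CPM per kb. In mutants, Cxcl14 stood at 42.2, Cxcl12 at 12.5, Cxcr4 at 7.70, Cx3cr1 at 5.74, Ackr3 at 5.26, Ccl9 at 2.997 and Ccr1 at 2.43 CPM per kb. The mean over the 6 libraries was above 10 CPM for 6 members and above 1 CPM for 19. The inflammatory ligands Ccl3, Ccl4, Ccl5, Cxcl1 and Cxcl2 had at most 16 counts in each library, and their groups overlapped.

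Over all 6 libraries, Ccl9, Ccr1 and Ccr3 were the members that met the limit, given below, for following Ctsk. Ccl9 encodes a CC ligand made by osteoclasts and macrophages that acts on Ccr1, a receptor on osteoclast precursors and other myeloid cells, and Ccr3 is the eotaxin receptor known from eosinophils. A gene was taken to follow Ctsk where the SD over the 6 libraries of its log2 ratio to Ctsk was under 0.5 of the SD of log2 Ctsk itself, which was 0.71. This quotient was 0.34 for Ccl9, 0.40 for Ccr3 and 0.49 for Ccr1, and 0.474% of all genes tested met the limit. The next members were Ccl27a at 0.53, Cxcr3 at 0.56 and Cxcl12 at 0.63. Ccr1 fell less than Ctsk. Its ratio to Ctsk was 0.0497, 0.0701 and 0.0527 in the controls against 0.0950, 0.0714 and 0.0739 in the mutants. That ratio was higher in every mutant (2-sided exact permutation p = 0.1, the smallest possible). The ratios of Ccl9 and of Ccr3 to Ctsk overlapped between the groups (2-sided exact permutation p = 0.6 and 0.3). Both genes had been picked by the small spread of this same ratio, so the overlap is no separate support. Ccl9 and Ccr3 met the limit with any 1 library left out, whereas Ccr1 did not without E435, E433 or E440. The members that met it numbered 5 without E434, 5 without E433 and 6 without both, which were Ccl9, Ccl27a, Cxcl12, Ccr2, Ccr3 and Cxcr2. Since the 6 libraries share the difference between genotypes, these quotients are descriptions without a test.

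The promoters of these genes and of Ctsk are shown because each of these genes was lower in every mutant. They run from 250 bases before to 50 bases after the start of transcription, in RefSeq's sequence of GRCm38.p6, 5′ to 3′ on the gene's strand. Capitals mark matches on either strand to TATAAA, the TATA box, and to GAGGAA, the core bound by the myeloid factor PU.1 and its relatives.
Ccl9 promoter, chr11:83578587-83578886, minus strand: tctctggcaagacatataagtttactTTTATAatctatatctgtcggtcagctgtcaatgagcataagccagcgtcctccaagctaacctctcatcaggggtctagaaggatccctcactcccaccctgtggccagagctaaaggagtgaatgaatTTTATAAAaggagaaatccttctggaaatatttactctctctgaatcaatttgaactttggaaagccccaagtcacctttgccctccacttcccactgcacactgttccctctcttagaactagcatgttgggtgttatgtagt
Ccr1 promoter, chr9:123968643-123968942, minus strand: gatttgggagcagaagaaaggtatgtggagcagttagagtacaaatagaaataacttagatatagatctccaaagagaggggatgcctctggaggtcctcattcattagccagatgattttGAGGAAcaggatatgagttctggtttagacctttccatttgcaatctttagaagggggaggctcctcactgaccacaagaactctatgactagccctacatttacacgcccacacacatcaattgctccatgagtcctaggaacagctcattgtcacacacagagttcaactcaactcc
Ccr3 promoter, chr9:124021721-124022020, plus strand: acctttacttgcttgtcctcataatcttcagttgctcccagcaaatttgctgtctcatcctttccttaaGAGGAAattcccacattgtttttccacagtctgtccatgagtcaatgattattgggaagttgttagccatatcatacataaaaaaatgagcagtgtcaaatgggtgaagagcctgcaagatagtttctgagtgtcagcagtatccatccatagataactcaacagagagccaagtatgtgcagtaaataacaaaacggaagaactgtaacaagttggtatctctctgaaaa
Ctsk promoter, chr3:95498960-95499259, plus strand: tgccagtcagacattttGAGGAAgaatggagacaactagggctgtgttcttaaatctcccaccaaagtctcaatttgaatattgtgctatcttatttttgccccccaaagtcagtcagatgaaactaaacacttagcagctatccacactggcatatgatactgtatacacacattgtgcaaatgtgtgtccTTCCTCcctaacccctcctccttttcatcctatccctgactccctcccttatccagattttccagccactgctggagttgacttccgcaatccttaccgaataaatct

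The Ccl9 window held 3 matches to TATAAA on the 2 strands, with overlap between a pair of them, and 0 to GAGGAA. Ccr1 and Ccr3 had 1 match to GAGGAA each and Ctsk had 2, and these held 0 matches to TATAAA. The GAGGAA match of Ccr3 overlaps a match to the kappaB consensus, which was also found in Ccl9 and in Ccr1. A match to GAGGAA was found in 28.3% of the 32851 RefSeq promoter windows and in 12 of the 32 members with a window, and TATAAA in 13.6% and in 10 of the 32. A match is a run of letters and not a measured binding site.

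Ccl9 (ENSMUSG00000019122.8, chromosome 11 from 83572919 to 83578636 in GRCm38) was at 19.01, 19.97 and 19.3 CPM in the control embryos E420, E434 and E435 and at 8.18, 8.91 and 10.3 CPM in the mutant embryos E423, E433 and E440. The groups were far apart and the embryos of each group close together, E434 and E433 included. Its mean fell from 19.4 ± 0.490 CPM (SD, n = 3) to 9.13 ± 1.07 CPM (SD, n = 3), or -1.09 on the log2 scale (SE 0.12, edgeR adjusted p = 0.0953). The call lay near the limit: the adjusted p was 0.0173 without E433, 0.142 without E434 and between 0.471 and 0.533 without E420, E435, E423 or E440, with fold changes from -1.18 to -1.02. With DESeq2's Wald test the adjusted p was 1.21e-11, and with edgeR on the RSEM counts it was 0.112. Ccl6, close to Ccl9 on chromosome 11, encodes a related ligand that also acts on Ccr1. Ccl6 was at 4.05, 5.54 and 4.02 CPM in the controls and at 3.44, 4.34 and 3.99 CPM in the mutants, so its groups overlapped. The ratio of Ccl9 to Ccl6 was 4.70, 3.61 and 4.80 in the controls against 2.38, 2.05 and 2.58 in the mutants, lower in all 3 mutants (2-sided exact permutation p = 0.1, the smallest that 3 embryos against 3 can give).

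Ccr1 (chromosome 9 from 123962124 to 123968692) was at 11.4, 11.3 and 12.1 CPM in the controls and at 7.99, 6.19 and 6.48 CPM in the mutants. Every mutant lay below every control, and the log2 fold change was -0.75 (SE 0.14, edgeR adjusted p = 0.211). DESeq2 gave an adjusted p of 0.000317, but the fold stayed inside the limit of 1. Ccr3, in the same cluster of chromosome 9 as Ccr1, had 45, 41 and 44 counts in the controls against 24, 22 and 20 in the mutants, or 0.986 ± 0.138 CPM (SD, n = 3) against 0.507 ± 0.0720 CPM (SD, n = 3). Its log2 fold change was -0.95 (SE 0.24, edgeR adjusted p = 0.351), and -1.01 without E434 and E433 (adjusted p = 0.0293). Ccr2, the receptor that brings monocytes out of the marrow and lies in that cluster too, had another pattern. It was at 5.37, 5.45 and 4.84 CPM in the controls and at 2.19, 6.19 and 2.51 CPM in the mutants, so E433 lay above all controls and E423 and E440 below them (log2 fold change -0.52, SE 0.40). Without E434 and E433 its log2 fold change was -1.11 (edgeR adjusted p = 1.37e-05), past the limits.

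Ctsk itself was at 229, 161 and 230.2 CPM in the controls and at 84.0, 86.8 and 87.7 CPM in the mutants (log2 fold change -1.261, SE 0.15, edgeR adjusted p = 0.0999). Ctsk was the only gene of a list of 12 osteoclast genes past the limits. In 11 of the 12 every mutant lay below every control, 6 had an unadjusted p under 0.05, and the list's median log2 fold change was -0.87. The list did not move evenly, because several of its genes were far lower in E433 than in the other mutants. Mmp9 was at 286, 316 and 275 CPM in the controls and at 120.05, 18.9 and 111.9 CPM in the mutants. Acp5, which encodes the tartrate-resistant phosphatase, was at 70.9, 82.0 and 71.8 CPM in the controls and at 69.5, 9.44 and 66.9 CPM in the mutants. Ccl9, Ccr1 and Ccr3 were not lower in this way in E433. With the mean of the 12 genes in place of Ctsk, the quotient was 0.71 for Ccl9, 0.69 for Ccr1 and 0.76 for Ccr3, so that they no longer met the limit and Ccl27a, at 0.41, was the member that did. Over all 6 libraries the 3 genes thus met the limit with Ctsk and not with the osteoclast list as a whole. Ctsk itself, at 0.75, did not meet the limit against the mean of the list. None of the other osteoclast genes met the limit with Ctsk, the lowest being Tnfrsf11a at 0.57. Of the osteoblast genes read below, Phex met it at 0.496 and the rest did not. Meeting the limit with Ctsk was therefore not a trait of osteoclast genes in these libraries.

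**Figure D3:**
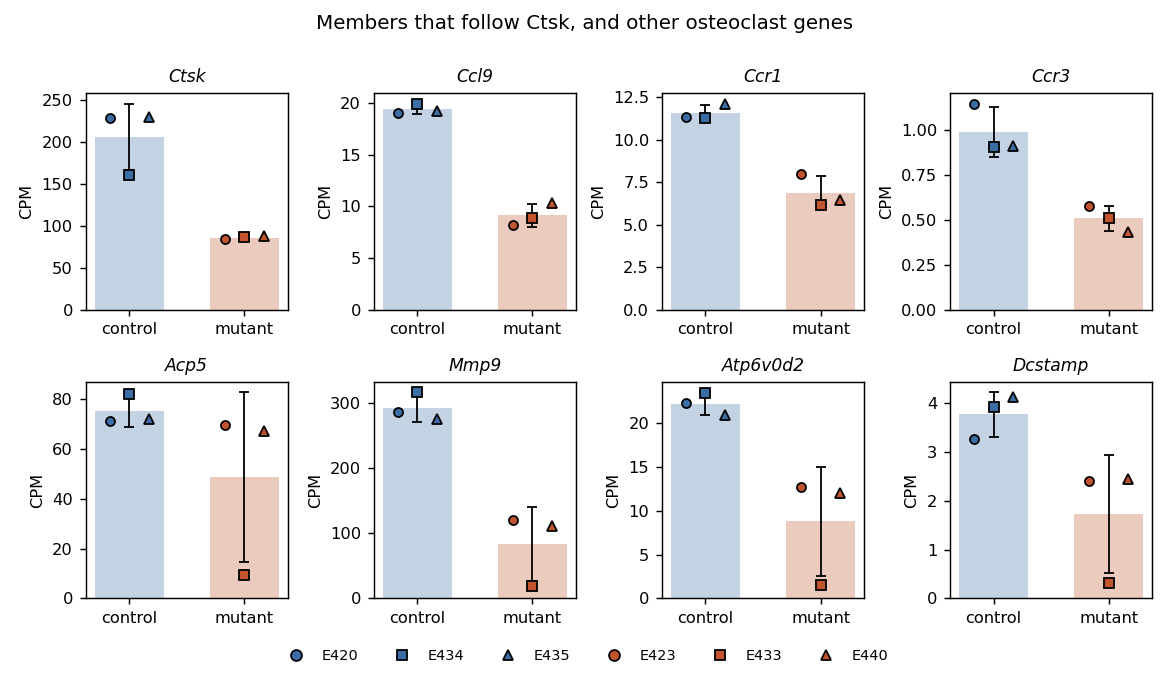
Levels in CPM of Ctsk, Ccl9, Ccr1 and Ccr3 (top) and of 4 other osteoclast genes (bottom) in each library, with bars for the group means, error bars for the SD (n = 3) and symbols for embryos. Mutant E433 (orange square) lies with the other mutants in the top row and far below them in the bottom row.

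Ccl9 and Ccr1 are also genes of macrophages. The list of 11 macrophage genes summed to 289, 299 and 285 CPM in the controls and to 237, 272 and 238 CPM in the mutants. In 3 of the 11 every mutant lay below every control and in 1, Mrc1, above, and 0 passed the limits with edgeR or with DESeq2 (unadjusted p under 0.05 for 3 lower and 1 higher). Of the list, Cd68 had the lowest p, with a log2 fold change of -0.63. Fold changes ran from -1.01 for Mpeg1 (edgeR adjusted p = 0.433) to 0.75 for Cd163 (edgeR adjusted p = 0.421). Without E434 and E433 both of these genes passed the limits, Mpeg1 at -1.47 and Cd163 at 1.07. Cx3cr1, the fractalkine receptor of resident macrophages, was at 30.7, 33.7 and 29.6 CPM in the controls and at 23.9, 33.0 and 20.7 CPM in the mutants, and its groups overlapped. The part of macrophages in the values of Ccl9 and Ccr1 was not tested.

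Cxcl12, the stromal ligand of Cxcr4, was lower in every mutant, by different amounts. Cxcl12 (ENSMUSG00000061353.11, chromosome 6 from 117168535 to 117181367) was at 167, 159 and 162 CPM in the controls and at 81.7, 144 and 80.03 CPM in the mutants. All mutants lay below all controls, but E433 lay near the controls. The log2 fold change was -0.67 (SE 0.23, edgeR adjusted p = 0.425). Without E433 it was -1.001 (adjusted p = 0.0022) and without E434 and E433 it was -1.02 (adjusted p = 3.62e-13), past the limits. With E420 and E435 summed, and E423 and E440 summed, it was -0.53 (edgeR adjusted p = 0.9998).

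The receptors of Cxcl12 differed by smaller folds. Cxcr4 was at 12.3, 10.5 and 11.2 CPM in the controls and at 13.7, 13.1 and 15.0 CPM in the mutants, higher in every mutant (log2 fold change 0.29, SE 0.11, edgeR adjusted p = 0.449). Ackr3, the atypical receptor that takes up Cxcl12, was at 19.8, 20.4 and 21.6 CPM in the controls and at 18.1, 16.0 and 18.7 CPM in the mutants (log2 fold change -0.22, SE 0.10, edgeR adjusted p = 0.497). The ratio of Cxcl12 to Cxcr4 was 13.6, 15.1 and 14.4 in the controls against 5.98, 11.03 and 5.32 in the mutants, lower in all 3 (2-sided exact permutation p = 0.1, the smallest possible). The list of 8 osteoblast genes, cells that are known to make Cxcl12, summed to between 1640 and 1707 CPM in the controls and to 843, 346 and 834 CPM in the mutants. E433, the mutant with the most Cxcl12, had the lowest osteoblast sum, and the part of osteoblasts in the Cxcl12 values was not tested. In all 8 osteoblast genes every mutant lay below every control, and Phex passed the limits (log2 fold change -1.68, edgeR adjusted p = 0.0775). The list of 7 endothelial genes summed to between 414 and 544 CPM in the controls against 392 to 498 CPM in the mutants, with 0 genes past the limits with edgeR or DESeq2 and 1, Emcn, at an unadjusted p under 0.05 (log2 fold change -0.36).

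**Figure D4:**
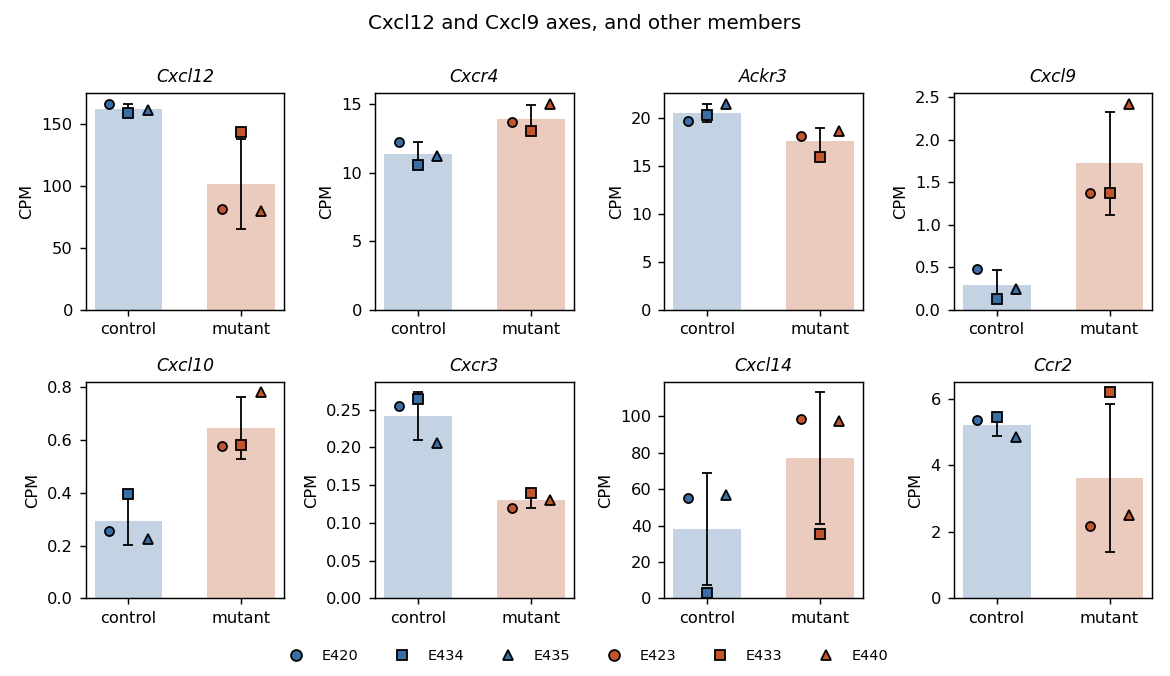
Levels in CPM of Cxcl12 with its receptors Cxcr4 and Ackr3, of Cxcl9, Cxcl10 and their receptor Cxcr3, and of Cxcl14 and Ccr2, with bars for group means, error bars for the SD (n = 3) and symbols for embryos. Cxcl9 and Cxcl10 lie higher and Cxcr3 lower in all 3 mutants, and E433 (orange square) lies near or above the controls for Cxcl12 and Ccr2.

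Cxcl9 and Cxcl10, ligands of Cxcr3 that interferon is known to induce, were higher in every mutant. Cxcl9 (ENSMUSG00000029417.9, chromosome 5 from 92321347 to 92328079) gave 19, 6 and 12 counts in the controls against 57, 59 and 112 counts in the mutants, or 0.288 ± 0.179 CPM (SD, n = 3) against 1.72 ± 0.610 CPM (SD, n = 3). Its log2 fold change was 2.59 (SE 0.49), the largest of the members tested. It did not pass with edgeR (adjusted p = 0.235) and passed with DESeq2's Wald test (adjusted p = 9.85e-05) and with edgeR without E434 and E433 (adjusted p = 2.15e-05). Cxcl10, close to Cxcl9 on chromosome 5, had 10, 18 and 11 counts in the controls against 24, 25 and 36 counts in the mutants (log2 fold change 1.13, SE 0.33, edgeR adjusted p = 0.389), with 5.91% of its exon bases shared with the overlapping gene Art3. Without E434 and E433 its log2 fold change was 1.4985 (edgeR adjusted p = 0.0161), past the limits. Their receptor Cxcr3 stood the other way, with 10, 12 and 10 counts in the controls against 5, 6 and 6 counts in the mutants (log2 fold change -0.88, SE 0.36, edgeR adjusted p = 0.469).

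The promoters of the pair are shown with capitals for matches on either strand to GAAANNGAA, the core of interferon-stimulated response elements, and to the kappaB consensus.
Cxcl9 promoter, chr5:92328030-92328329, minus strand: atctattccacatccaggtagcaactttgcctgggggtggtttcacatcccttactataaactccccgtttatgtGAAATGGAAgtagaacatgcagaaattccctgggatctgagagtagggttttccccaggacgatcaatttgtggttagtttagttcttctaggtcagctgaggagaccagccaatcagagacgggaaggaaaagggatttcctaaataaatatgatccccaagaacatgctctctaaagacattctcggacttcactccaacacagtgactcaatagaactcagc
Cxcl10 promoter, chr5:92348840-92349139, minus strand: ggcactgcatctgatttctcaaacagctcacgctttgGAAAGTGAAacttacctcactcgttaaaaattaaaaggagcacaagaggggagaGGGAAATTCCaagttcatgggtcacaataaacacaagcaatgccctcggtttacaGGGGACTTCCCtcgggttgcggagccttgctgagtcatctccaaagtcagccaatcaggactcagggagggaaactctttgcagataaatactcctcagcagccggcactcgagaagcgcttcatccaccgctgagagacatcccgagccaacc

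Both windows held 1 match to GAAANNGAA, which was in 8.56% of all promoter windows and in 6 of the 32 members with a window. Cxcl10 held 3 matches to the kappaB consensus, a pair of which overlap, and Cxcl9 held 0, where 8.46% of all windows and 8 of the 32 members had a match.

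The lists of inducers and of other interferon targets were read beside these ligands. Of 10 interferon response genes, 0 passed the limits with edgeR or DESeq2 and 1, Rsad2, had an unadjusted p under 0.05, with a log2 fold change of -0.80. The list's median log2 fold change was -0.02, and its sum was 41.2, 47.9 and 41.4 CPM in the controls against 35.8, 40.7 and 34.5 CPM in the mutants. In 3 of the 10 every mutant lay above every control. Ifng, the interferon of T cells and natural killer cells, had at most 4 counts in each library. Of 10 inflammatory inducers, 0 passed with edgeR, 1 lower and 1 higher had an unadjusted p under 0.05, and DESeq2 called Il1a higher. Il1a had 0, 1 and 3 counts in the controls against 280, 4 and 316 counts in mutants E423, E433 and E440, and the keratinocyte sum was highest in E423 and E440.

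Ccl27a, a ligand known for guiding T cells to skin through Ccr10, had the lowest fold change of the members. Ccl27a (ENSMUSG00000073888.13, chromosome 4 from 41769467 to 41774247) gave 88, 91 and 107 counts in the controls against 40, 21 and 41 counts in the mutants, or 2.15 ± 0.125 CPM (SD, n = 3) against 0.779 ± 0.256 CPM (SD, n = 3). Its log2 fold change was -1.46 (SE 0.28), which did not pass with edgeR (adjusted p = 0.235) and passed with DESeq2 (adjusted p = 0.00109) and with edgeR without E434 and E433 (adjusted p = 0.000244). The keratinocyte list moved otherwise, with its highest sums in E423 and E440 (27115 and 27239 CPM) and its lowest in E434. Ccr10 had 14, 12 and 29 counts in the controls against 58, 17 and 40 counts in the mutants.

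Ccl27a lies in a stretch of chromosome 4 with near-identical copies, so its counts are uncertain. Of its 42-base words, the length of the reads, 49.3% were also found in Gm20878, Gm13306, Ccl27b, Gm21953, Gm21586 or Gm13307, and all of the words of Ccl27b were found elsewhere. Promoter windows of Ccl27a and Ccl27b are shown because, at their best match without gaps, they differ at 2 of 288 bases (99.3% identical). The differing bases are in capitals. This match was picked as the closest over their windows and the offsets tried. The Ccl27a window lies within the annotated gene, which runs to 41774247 and is on the minus strand. It is thus not at that gene's outermost start.
Ccl27a promoter, chr4:41770175-41770462, minus strand: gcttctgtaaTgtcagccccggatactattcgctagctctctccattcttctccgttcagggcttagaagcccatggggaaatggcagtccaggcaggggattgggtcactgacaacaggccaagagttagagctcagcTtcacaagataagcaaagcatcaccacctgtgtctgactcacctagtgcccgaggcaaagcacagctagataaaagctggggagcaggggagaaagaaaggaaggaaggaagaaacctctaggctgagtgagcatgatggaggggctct
Ccl27b promoter, chr4:42655013-42655300, plus strand: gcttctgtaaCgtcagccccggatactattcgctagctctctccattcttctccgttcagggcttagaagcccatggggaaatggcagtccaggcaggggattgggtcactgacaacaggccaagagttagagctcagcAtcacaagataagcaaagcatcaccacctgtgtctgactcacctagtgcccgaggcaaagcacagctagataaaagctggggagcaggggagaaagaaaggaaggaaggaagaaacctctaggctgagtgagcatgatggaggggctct

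Summed over Ccl27a and 5 copies, the counts were 143, 145 and 174 in the controls against 63, 46 and 67 in the mutants (log2 fold change -1.37, SE 0.19, edgeR adjusted p = 0.142). In the RSEM pipeline, which divides shared fragments between copies, the sum was 74.4, 87.1 and 95.6 expected counts in the controls against 37.0, 22.4 and 33.6 in the mutants. The lower level in mutants was thus present in the sum and in both pipelines. It was not particular to Ccl27a within this stretch. From Ccl27a to Ccl21a, 24 genes were tested, and in 13 of them (54.2%) every mutant lay below every control and in 0 above, against 8.21% of all genes, a stretch chosen after its values were seen and given without a test. Fam205a2, Fam205a3 and Fam205a4, genes of the stretch that share nearly all their words, summed to 42, 82 and 59 counts in the controls and to 0, 1 and 1 counts in the mutants. Many of these genes share reads with each other and are not independent. The embryos had a mixed strain background, and a strain difference in the copies of this stretch cannot be told apart here from the mutant genotype.

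Ccl21a, the ligand that guides dendritic cells and T cells through Ccr7, is not among the 41 genes but lies at the end of the same stretch. With 5 copies it summed to 413, 707 and 612 counts in the controls and to 427, 506 and 419 in the mutants (log2 fold change -0.32, edgeR adjusted p = 0.57), with the groups overlapping. A copy on an unplaced scaffold (ENSMUSG00000096271.1) had 77.3, 110.3 and 110.2 expected counts in the controls against 0 in all 3 mutants in the RSEM pipeline, whereas featureCounts gave it 23, 70 and 71 counts in the controls against 40, 30 and 31 in the mutants, so the pipelines disagreed on this copy. Ccr7 had 2, 2 and 4 counts in the controls against 6, 10 and 8 in the mutants (log2 fold change 1.57, SE 0.51, edgeR adjusted p = 0.407).

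**Figure D5:**
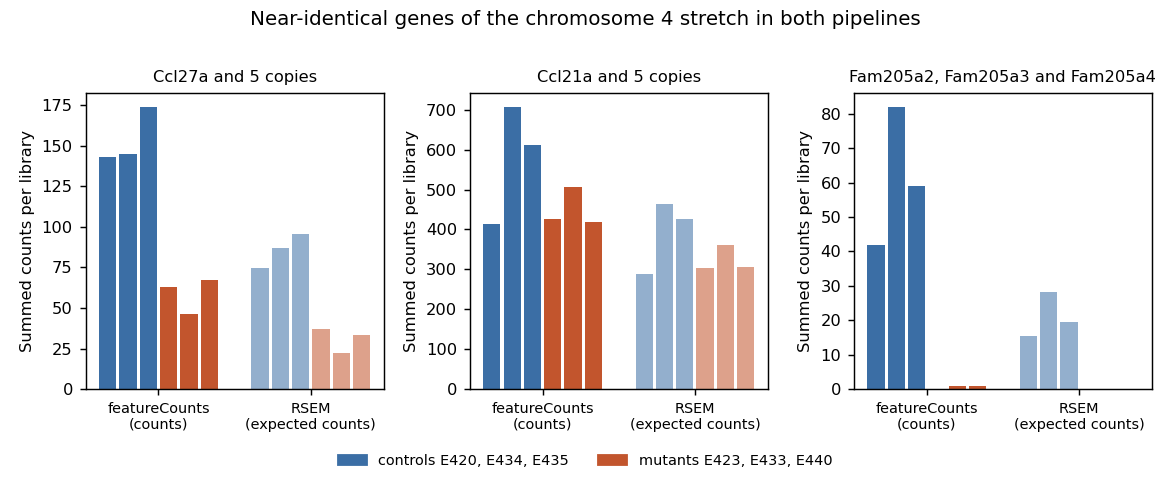
Counts per library summed over Ccl27a and 5 near-identical copies, over Ccl21a and 5 copies and over 3 Fam205a genes, from featureCounts (full colour, both ends of a fragment counted) and from RSEM (pale, fragments). The Ccl27a and Fam205a sums are lower in every mutant in both pipelines, the latter at 0 or 1 count, while the Ccl21a sums overlap.

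Ccr9, the receptor of Ccl25 known from thymocytes, was higher in every mutant. It had 6, 8 and 19 counts in the controls against 59, 26 and 51 counts in the mutants, or 0.240 ± 0.132 CPM (SD, n = 3) against 1.04 ± 0.412 CPM (SD, n = 3). The log2 fold change was 2.09 (SE 0.49), which did not pass with edgeR (adjusted p = 0.33), and passed with DESeq2 (adjusted p = 0.0132) and with edgeR without E434 and E433 (adjusted p = 0.000241). Of its exon bases, 21.5% overlap other genes, mostly AC165425.1, and since strand was not used in counting, reads of these genes cannot be told apart there. Ccl25 overlapped between the groups, at 3.72, 3.86 and 3.85 CPM in the controls against 2.77, 5.10 and 3.53 CPM in the mutants (log2 fold change 0.00, SE 0.24). The list of 11 thymocyte and T cell genes summed to 3.18, 3.0004 and 2.99 CPM in the controls and to 4.69, 5.45 and 3.84 CPM in the mutants. Of its 10 tested genes, 0 passed the limits with edgeR or DESeq2 and 3 had an unadjusted p under 0.05, all higher, with Lck at 1.15, 1.04 and 1.257 CPM in the controls against 2.14, 1.97 and 1.89 CPM in the mutants. DESeq2 gave no adjusted p for Cd3d, Cd3g, Dntt, Ptcra, Cd8a and Cd8b1, so it could not call them. Cd8a had 0 counts in each control and 6, 4 and 2 counts in the mutants. The part of such cells in the values of Ccr9 was not tested.

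Eotaxin and the monocyte-attracting ligands of the chromosome 11 cluster showed small differences in opposite directions. Ccl11, the eotaxin that acts on Ccr3, was at 2.14, 3.13 and 2.08 CPM in the controls and at 3.42, 5.73 and 3.75 CPM in the mutants, above all controls in each (log2 fold change 0.81, SE 0.27, edgeR adjusted p = 0.415). Its receptor Ccr3 was lower in the same embryos. Ccl24, the other eotaxin among the members, was at 1.73, 1.43 and 2.12 CPM in the controls and at 1.68, 1.97 and 2.21 CPM in the mutants. Ccl7, a ligand of Ccr2, was at 0.687, 0.728 and 0.701 CPM in the controls and at 0.818, 1.79 and 0.932 CPM in the mutants, with E433 well above the others (log2 fold change 0.74, SE 0.34, edgeR adjusted p = 0.506). Without E433 its log2 fold change was 0.32, and without E434 and E433 it was 0.34. Ccl12, another ligand of Ccr2, was at 0.814, 1.13 and 1.09 CPM in the controls and at 0.770, 0.719 and 0.802 CPM in the mutants (log2 fold change -0.41, SE 0.22, edgeR adjusted p = 0.556). Ccl2, the main ligand of Ccr2, overlapped between groups, from 1.09 to 1.9995 CPM in the controls against 1.19 to 1.97 CPM in the mutants.

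Several members divided the libraries in another way than by genotype. Cxcl14, a ligand made by keratinocytes and mesenchyme, was at 55.2, 2.91 and 56.9 CPM in the control embryos E420, E434 and E435 and at 98.6, 35.3 and 97.2 CPM in the mutant embryos E423, E433 and E440. Its order over the libraries was that of the keratinocyte sums at both ends, lowest in E434, next lowest in E433 and highest in E423 and E440, and the part of skin in it was not tested. The log2 fold change was 1.01 with a standard error of 0.95, smaller than the spread within groups. Cxcl13, the B cell ligand of Cxcr5, was at 2.39, 3.44 and 2.54 CPM in the controls and at 0.890, 4.52 and 0.477 CPM in the mutants. It passed the limits without E434 and E433 (log2 fold change -1.86, edgeR adjusted p = 1.4e-05), as E433 was higher than all controls and the other mutants lower. Cxcr2, the neutrophil receptor, had 45, 6 and 50 counts in the controls against 23, 23 and 25 counts in the mutants. Cxcr6, the receptor of Cxcl16, had 51 counts in E433 and at most 16 in the other libraries. Without E434 and E433, 6 of 34 members tested were lower (Ccl9, Ccl27a, Cxcl12, Cxcl13, Ccr2 and Ccr3) and 3 were higher (Cxcl9, Cxcl10 and Ccr9), where 2.59% and 5.66% of all genes were called, so the share of lower members was above that of all genes and the share of higher members near it.

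Cxcl16, a membrane-bound ligand, was at 3.18, 3.29 and 2.72 CPM in the controls and at 2.45, 1.74 and 2.84 CPM in the mutants, with 18.3% of its exon bases in the overlapping gene Zmynd15. Cx3cl1, the ligand of Cx3cr1, was at 4.45, 2.56 and 4.37 CPM in the controls and at 5.12, 3.76 and 4.85 CPM in the mutants. Both overlapped between the groups. Ackr4, the atypical receptor that clears Ccl19, Ccl21 and Ccl25, was at 9.14, 8.67 and 9.21 CPM in the controls and at 7.75, 7.70 and 5.94 CPM in the mutants, below all controls in each (log2 fold change -0.34, SE 0.14, edgeR adjusted p = 0.477). Ccl17, Ccl20 and Ccl28 had at most 21 counts in each library, and their groups overlapped.

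Among 23 other genes of the chemokine family, 18 were tested and 0 passed the limits with edgeR or with DESeq2. DESeq2 gave no adjusted p for some of them, Cxcl15, Cxcl17 and Ccr6 included. Of these 18, 3 higher and 0 lower had an unadjusted p under 0.05, and the lowest p was that of the atypical receptor Ackr2, at 0.865, 0.838 and 0.907 CPM in the controls against 1.78, 1.21 and 1.45 CPM in the mutants. Ackr1, another atypical receptor, had 27, 31 and 22 counts in the controls against 34, 74 and 41 in the mutants. Of 20 signalling genes that act below chemokine receptors (G protein subunits, arrestins, receptor kinases, Rac and its exchange factors), 0 passed the limits with edgeR and the median log2 fold change was -0.03. Their sum lay between 1819.6 and 1899.6 CPM in all 6 libraries. The unadjusted p was under 0.05 for 2 genes, both lower in every mutant, and DESeq2 called 1 of them lower. Prex1, a Rac exchange factor, was at 67.5, 72.2 and 60.8 CPM in the controls and at 47.2, 49.95 and 48.4 CPM in the mutants, and Pik3r5, a subunit of the lipid kinase that G proteins activate, was at 3.23, 3.77 and 2.35 CPM in the controls and at 1.59, 1.07 and 1.495 CPM in the mutants.

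Markers of other cells that carry chemokines or receptors were read in the same libraries. Among 9 neutrophil genes, 0 of the 8 tested had an unadjusted p under 0.05 and 0 were called with edgeR or DESeq2, and the lowest p was that of Mpo (log2 fold change 0.98, edgeR adjusted p = 0.64). The 6 mast cell genes summed to 200.3, 39.2 and 208 CPM in the controls and to 530, 214 and 535 CPM in the mutants, with 0 called with edgeR or DESeq2, 2 higher at an unadjusted p under 0.05 and Cpa3 at the lowest p (log2 fold change 1.67). The 4 thymic epithelium genes summed to 3.26, 0.728 and 2.87 CPM in the controls and to 6.25, 2.32 and 4.85 CPM in the mutants, with 0 called by either tool, 0 at an unadjusted p under 0.05 and Psmb11 at the lowest p (log2 fold change 1.503). DESeq2 gave no adjusted p for Aire. Foxn1 was most of this sum in E420, E435, E423 and E440. It was at 2.85, 0.0441 and 2.45 CPM in the controls and at 5.89, 0.928 and 4.23 CPM in the mutants. Like the keratinocyte sum, Foxn1 was lowest in E434 and highest in E423 and E440. Psmb11, Prss16 and Aire were instead highest in E433, at 0.394, 0.858 and 0.139 CPM. The part of skin or thymus in this sum was not tested. With edgeR 0 genes were called in the lists of keratinocytes (lowest p for Flg), chondrocytes (Col10a1), adipocytes (Adipoq), hepatocytes (Apoa2) and skeletal muscle (Myh8), with 2, 0, 6, 3 and 2 genes higher and 0 lower at an unadjusted p under 0.05. DESeq2 called 1 keratinocyte gene and 6 adipocyte genes higher, 1 osteoclast gene and 7 osteoblast genes lower, and 0 in the other 3 of these lists. However, DESeq2 gave no adjusted p for any hepatocyte gene, nor for Col2a1, Acan, Col9a1, Col11a2, Matn1 and Comp. These genes could not be called by it, so the 0 is no result about them.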

How the data were processed

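Rib cage RNA of 3 control and 3 mutant embryos was analysed, grouped by the labels. The authors aligned reads of 42 bases from both ends to GRCm38 with HISAT2 2.1.0 and deposited whole-number counts per gene from featureCounts 1.6.0, with each end counted, strand not used and, per the file header, primary alignments of reads that map to several places included. The authors also deposited expected counts from STAR 2.7.6 and RSEM 1.2.31, which were rounded to whole numbers for the test, with TPM and FPKM columns that the authors made by RSEM and that were not used. Their DESeq2 1.26.0 tables hold fold changes and adjusted p-values and were not used, nor were 12 further columns of per-sample values in them.

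Genes with at least 10 counts over 6 libraries entered the quasi-likelihood test of edgeR 4.0.16 in R 4.3.3 after TMM scaling, with Benjamini-Hochberg adjustment over 26596 genes and the limits of the study's methods, 0.1 and a log2 fold change of 1. Where nothing says which embryos share a litter, p-values measure the spread between these embryos. Log2 CPM used a prior count of 2. The SD of pairwise log2 ratios was taken over genes with 200 counts in a pair. DESeq2 1.42.0 was an alternative, with other filters, scalings, limits, left-out libraries and 3 alternatives chosen after seeing the data (close libraries summed, DESeq2 without E434 and E433, and copies summed, with the Ctsk measure also run without E434 and E433). Genes to which DESeq2 gave no adjusted p-value counted as not called.

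The members and lists were chosen with earlier results of these data known. Values of all members are given by embryo or range, and full statistics for those called, those whose groups do not overlap at a mean of at least 0.5 CPM, and Cxcl12, Cxcr4 and Ackr3. Of each list, counts are given with the genes past the limits or the gene with the lowest p. Other genes of lists, and neighbours of Ccl27a, were named after their values were seen. Shared words of 42 bases were counted in GENCODE transcripts.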

Additional observations from a re-analysis of the deposited data

How the results depend on the processing

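Over 16 alternatives, all 13 members with full statistics kept the direction of their fold change, in 208 of 208 values. The mutant and control groups of these 13 did not overlap, mostly by the rule that chose them. A reversal was therefore hardly possible, and the kept direction is no separate support. In 185 of these the side of the limits was kept as well, 16 newly passed the limits, for Ccl27a, Cxcl9, Cxcl12, Ccr3 and Ccr9, and 7 lost them, all for Ccl9. Members called lower numbered 1 with all libraries. This became 2 with DESeq2's Wald test, 0 on the RSEM expected counts (edgeR adjusted p = 0.112 for Ccl9), 0 at an adjusted p limit of 0.01, 6 without E434 and E433 and, among alternatives chosen after seeing the data, 0 with the close libraries summed and 5 with DESeq2 without E434 and E433. Members called higher numbered 0 with all libraries, 2 with DESeq2, 3 without E434 and E433 and 3 with DESeq2 without them. Leaving out 1 library at a time gave 0 to 5 lower and 0 to 2 higher members, the upper ends without E433. Members that follow Ctsk numbered 3, and 1 with the osteoclast list in place of Ctsk, 6 at a limit of 0.75, 2 to 5 with 1 library left out and 6 without E434 and E433. Ccl9 and Ccr3 met the limit in each leave-one-out run, and Ccr1 did not without E435, E433 or E440. The causes were not tested beyond what the construction of each alternative shows, such as fewer samples. No paired analysis was possible because the embryo numbers in the labels do not pair controls with mutants and the litters are not given. Counts limit the members under 1 CPM, where 1 count is a large share of the level.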
